A study of Mus musculus with 12 samples.

Results

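The genes described here are 9 transcription factors that act for or against fat cell formation, taken by symbol from 18255 genes listed in the series: Cebpa, Cebpb, Cebpd and Cebpg of the C/EBP family, Ebf1 and Ebf3 of the EBF family, Zfp423, and Gata2 and Gata3. RNA was sequenced from 3T3-L1 cells, a mouse line of fat cell precursors, in 4 groups of 3 libraries. LIGHT-Diff and NC-Diff are the LIGHT line and the control line after beige differentiation, and LIGHT-Undiff and NC-Undiff are the same lines before it. The LIGHT line overexpresses LIGHT, the cytokine encoded by Tnfsf14, and the control line carries the label NC. Both differentiated groups received the same cocktail, with 5 µg/ml insulin, 1 µM rosiglitazone (a PPARγ agonist), 1 nM tri-iodothyronine, 0.5 mM IBMX (a phosphodiesterase inhibitor), 2 µg/ml dexamethasone and indomethacin. After 48 h they were kept in rosiglitazone, tri-iodothyronine and insulin only. The day of harvest, the vector, its promoter, and whether each line is a clone or a pool are given in none of the sources used here. The labels do not call the 3 libraries of any group separate cultures, and every p-value therefore measures only the spread between these libraries, which may be technical.

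When precursor cells are made to differentiate, C/EBPβ and C/EBPδ appear early and switch on Cebpa and Pparg, whose products then maintain each other and turn on the genes of the mature fat cell. EBF1 acts on the same pair, and Zfp423 is a zinc finger protein that commits precursors to the fat lineage and that restrains thermogenic genes in mature white fat cells. GATA2 and GATA3 are brakes: they mark precursors, repress Pparg and bind to C/EBP proteins. C/EBPγ has no activation domain of its own and works as a partner of other factors, and EBF3 is a close relative of EBF1.

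Promoters from RefSeq (build GRCm38.p6), each reaching from 250 bases before the annotated start of transcription to 50 after it, matched 8 of the 9 genes, and Cebpd had no entry. The windows printed below belong to the genes with the highest rises in both lines (Cebpa, and Zfp423 with its 2 annotated starts) and to genes that fell in both lines (Ebf3 and the first annotated start of Gata2). They were read in the direction of the gene, and capitals mark matches to TTGCNNAA (a C/EBP motif) or CCCNNGGG (an EBF motif). Each window was searched on both strands for these and for AGATAA, the motif of the GATA factors.
Cebpa (chr7:35119043-35119342, plus strand): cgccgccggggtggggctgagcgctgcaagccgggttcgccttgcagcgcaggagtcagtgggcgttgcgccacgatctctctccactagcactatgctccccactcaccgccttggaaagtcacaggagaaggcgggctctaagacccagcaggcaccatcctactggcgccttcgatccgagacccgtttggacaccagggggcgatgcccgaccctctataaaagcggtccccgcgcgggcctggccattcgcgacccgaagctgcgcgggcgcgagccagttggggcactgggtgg
Zfp423 start 1 (chr8:87959546-87959845, minus strand): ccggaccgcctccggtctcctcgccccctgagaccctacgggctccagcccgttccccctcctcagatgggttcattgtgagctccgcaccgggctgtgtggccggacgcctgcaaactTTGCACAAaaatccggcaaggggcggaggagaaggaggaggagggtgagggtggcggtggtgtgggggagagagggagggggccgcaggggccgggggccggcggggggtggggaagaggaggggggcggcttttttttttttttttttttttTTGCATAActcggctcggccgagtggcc
Zfp423 start 2 (chr8:87804390-87804689, minus strand): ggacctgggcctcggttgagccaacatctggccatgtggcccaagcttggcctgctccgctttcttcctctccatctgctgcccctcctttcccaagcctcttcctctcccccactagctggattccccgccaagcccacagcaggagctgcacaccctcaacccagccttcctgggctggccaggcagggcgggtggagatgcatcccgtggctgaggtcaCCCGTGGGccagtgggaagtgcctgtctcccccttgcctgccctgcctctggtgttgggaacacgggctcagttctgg
Ebf3 (chr7:137314396-137314695, minus strand): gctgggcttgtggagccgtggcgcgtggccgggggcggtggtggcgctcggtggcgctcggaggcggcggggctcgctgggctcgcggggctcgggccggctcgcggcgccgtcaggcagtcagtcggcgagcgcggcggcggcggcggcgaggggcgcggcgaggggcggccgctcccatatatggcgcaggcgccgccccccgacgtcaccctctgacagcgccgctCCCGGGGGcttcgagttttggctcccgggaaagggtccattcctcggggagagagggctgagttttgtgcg
Gata2 start 1 (chr6:88193641-88193940, plus strand): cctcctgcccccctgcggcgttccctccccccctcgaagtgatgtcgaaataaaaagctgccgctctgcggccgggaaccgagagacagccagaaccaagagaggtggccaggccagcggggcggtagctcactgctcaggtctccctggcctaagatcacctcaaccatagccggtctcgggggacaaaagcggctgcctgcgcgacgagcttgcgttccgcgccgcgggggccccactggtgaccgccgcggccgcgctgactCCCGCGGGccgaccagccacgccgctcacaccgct
The first Zfp423 window held C/EBP motif matches TTGCACAA and TTGCATAA, at -131 and 23 bases from its start, and the second held the EBF match CCCGTGGG at -28. Ebf3 and Gata2 start 1 each held an EBF match, at -21 and 16 bases. The letters of none of the motifs occurred in the Cebpa window. Among the windows not printed, Cebpb had 1 EBF match and Gata2 start 2 had 2 overlapping ones, while the Cebpg, Ebf1 and Gata3 windows had no match, and AGATAA occurred in no window of these genes. Of 32851 RefSeq promoters of the same length, 10.8% held the C/EBP letters, 13.7% the EBF letters and 11.2% the GATA letters. A match describes letters in a window and not a bound site.

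The libraries held 16334079 to 19686675 expected counts over genes, so that 3 counts in 1 library corresponded to 0.152 to 0.184 CPM (counts scaled by library size and TMM factor). Every one of the 9 genes passed the filter on low counts, and the lowest count of any of them was 33, for Gata3 in LIGHT-Diff 1. Tnfsf14 itself had 38, 53 and 58 counts in the LIGHT-Undiff libraries, against 0, 1 and 0 in the NC-Undiff libraries. After differentiation it had 0, 148 and 122 counts in the libraries labelled LIGHT-Diff 1, 2 and 3, against 113, 0 and 0 in those labelled NC-Diff 1, 2 and 3. The libraries labelled LIGHT-Diff 1 and NC-Diff 1 therefore go against their labels in the gene that defines the lines. They also stood apart from the other 2 libraries of their groups over all genes: pairs that held one of them had 34.7 to 48.7 in chi-square per gene, and all other pairs within a group 2.48 to 7.2. They were used as labelled, and the tests of the 9 genes and of the related genes named are also given without them, from the same fit with the other 10 libraries. In that fit both differentiated groups have 2 libraries each.

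Adipocyte markers (Adipoq, Plin1, Cidec, Lpl and Fabp4, 5 of 5 detected) summed to 15251 to 20804 CPM in LIGHT-Diff and 15487 to 20902 CPM in NC-Diff, against 173 to 210 CPM in LIGHT-Undiff and 188 to 224 CPM in NC-Undiff. The label of a differentiated fat cell line thus fits its markers. Without LIGHT-Diff 1 and NC-Diff 1 the adipocyte sums were 15251 to 15623 CPM in LIGHT-Diff and 19780 to 20902 CPM in NC-Diff, which do not overlap. Precursor and fibroblast markers (7 genes) summed to 5670 to 6933 CPM in LIGHT-Diff, 5326 to 7888 in NC-Diff, 8535 to 9292 in LIGHT-Undiff and 5304 to 6268 in NC-Undiff; without the pair of libraries they summed to 6858 to 6933 CPM in LIGHT-Diff and 5326 to 5599 in NC-Diff. Cells in which GATA2, GATA3 or C/EBP proteins are also known left little trace. T cell markers summed to at most 3.59 CPM with Cd3e and Cd3g at 0 in all libraries. Mast cell markers summed to at most 0.161 CPM with Cpa3, Fcer1a, Tpsb2 and Mcpt4 at 0, endothelial markers to at most 1.10 CPM and macrophage and leukocyte markers to at most 2.62 CPM. Epithelial markers summed to 2.25 to 8.72 CPM in LIGHT-Diff and 1.49 to 10.5 in NC-Diff, against at most 0.215 in LIGHT-Undiff and 0.408 in NC-Undiff, with Epcam at 0 in all libraries, and without the pair to 2.25 to 2.53 CPM in LIGHT-Diff and 7.45 to 10.5 in NC-Diff; their part in the results was not tested. In bulk RNA, fewer cells of a type and less RNA per cell cannot be told apart.

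**Figure D1:**
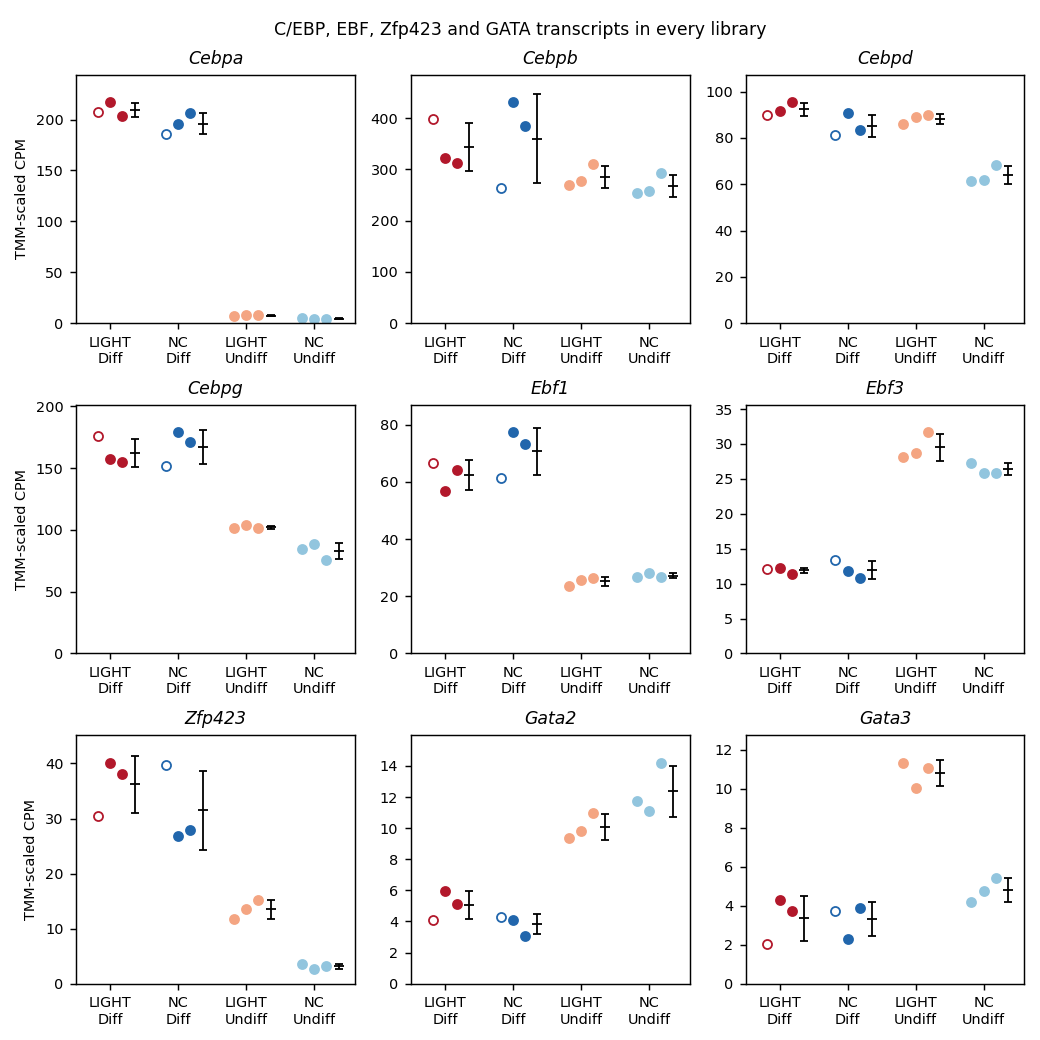
Each panel plots TMM-scaled CPM of 1 gene (y axis, from 0) in the 12 libraries by group (x axis), with the mean ± SD of the 3 libraries in black and with LIGHT-Diff 1 and NC-Diff 1 as hollow points. Cebpa lies at 186 to 217 CPM in all differentiated libraries and at 3.88 to 7.67 CPM in all undifferentiated ones, and Zfp423 and Gata3 separate the lines before differentiation.

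Differentiation of the LIGHT line raised 4 of the 9 regulators and lowered 3. Among 12993 genes tested with edgeR at an adjusted p under 0.05, 58.6% were called in this comparison, 29.5% up and 29.1% down, and the 7 of 9 regulators are to be read against that share. Cebpa, Cebpg, Ebf1 and Zfp423 rose, Ebf3, Gata2 and Gata3 fell, and Cebpb and Cebpd did not pass the test. Of the 5 genes known as activators (Cebpa, Cebpb, Cebpd, Ebf1 and Zfp423), 3 rose and none fell, with a median log2 change of 1.30, and the median over all genes was -0.0044. Leaving out LIGHT-Diff 1 and NC-Diff 1 gave the same counts, 4 up and 3 down, beside 64.7% of all genes (32.5% up and 32.2% down).

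In the control line, differentiation raised 6 of the 9 and lowered 2, where 63.9% of all genes were called, 32.2% up and 31.7% down. The rises were in the C/EBP genes, Ebf1 and Zfp423, and the falls in Ebf3 and Gata2. All 5 activators rose, with a median log2 change of 1.37, and the median over all genes was 0.00045. Without LIGHT-Diff 1 and NC-Diff 1, 6 rose and 3 fell, where 71.1% of all genes were called, 36% up and 35.1% down.

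Before differentiation, LIGHT cells had more of 5 of the 9 transcripts and less of none, while 26.5% of all genes were called, 12.3% higher and 14.2% lower. The higher ones were Cebpa, Cebpd, Cebpg, Zfp423 and Gata3, so that 3 activators and 1 brake stood above the control line together. Over the 9 genes the median log2 difference was 0.30, against -0.012 over all genes. With 10 libraries the count was again 5 and 0, beside 44.8% of all genes (22.5% higher and 22.3% lower). The summed precursor and fibroblast markers were also higher in LIGHT-Undiff, at 8535 to 9292 CPM against 5304 to 6268 CPM in NC-Undiff. Of the 7 markers, Dlk1 and Col1a1 were called higher in LIGHT cells and Thy1 lower, 4 were not called, and the list median was 0.057. With 10 libraries Pdgfra was higher too (3 higher and 1 lower, median 0.068). The part of these markers in the differences was not tested.

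After differentiation, none of the 9 passed the test between the lines as labelled, and edgeR called 0% of the 12993 genes. At an unadjusted p under 0.05, edgeR counted 1 of the 9 genes (Gata2) and 523 genes in all (4.03%). DESeq2 called 1 gene and counted 1 of the 9 and 454 genes at an unadjusted p under 0.05, and limma on log2 FPKM called 0 and counted 2 of the 9 and 621 genes. Without the libraries labelled LIGHT-Diff 1 and NC-Diff 1 5 of the 9 passed: Zfp423 and Gata2 were higher and Cebpb, Cebpg and Ebf1 lower in LIGHT cells, beside 31.5% of all genes called, 14.8% up and 16.7% down. That comparison rests on 2 libraries a group. In the same 10-library fit 3 of the 5 adipocyte markers were lower in LIGHT cells (Fabp4 -0.67, Adipoq -0.47 and Plin1 -0.30) and none higher, with a list median of -0.30. Both epithelial markers tested, Krt8 and Krt18, were lower too (median -1.93), and of the 7 precursor markers 3 were higher and 2 lower (median 0.22). The part of these markers in the result was not tested.

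The response to differentiation differed between the lines for 3 of the 9 genes, all with a lower value in LIGHT cells: Cebpa, Cebpd and Zfp423. Of all genes 9.34% were called, 4.26% with a lower response in LIGHT cells and 5.08% with a higher one. Without the pair of libraries, 6 were lower (Cebpa, Cebpb, Cebpd, Cebpg, Zfp423 and Gata3) and 1 higher (Gata2), beside 31.4% of all genes called (16.3% lower and 15.1% higher). These comparisons share libraries: both lines' responses enter the difference between them, and LIGHT-Undiff enters 3 of the 5 comparisons.

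**Figure D2:**
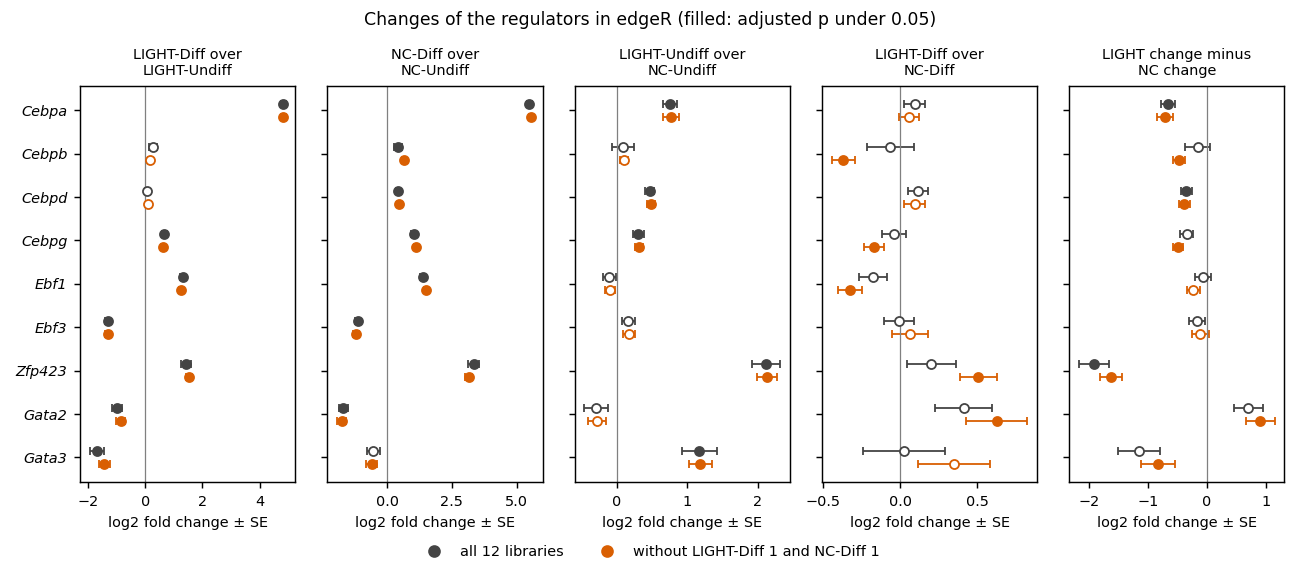
Points show the log2 fold change ± SE of each gene (y axis) in the 5 comparisons (panels, each with its own x scale), from edgeR with all 12 libraries (grey) and without LIGHT-Diff 1 and NC-Diff 1 (orange), filled where the adjusted p is under 0.05. In LIGHT-Diff over NC-Diff no grey point is filled, and the orange points of Cebpb, Cebpg, Ebf1, Zfp423 and Gata2 are.

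Cebpa, which encodes the C/EBP protein of the mature fat cell, had the highest rise of the 9. Its level was 208, 217 and 203 CPM in the LIGHT-Diff libraries, 186, 196 and 206 in NC-Diff, 6.85, 7.64 and 7.67 in LIGHT-Undiff and 4.85, 3.88 and 4.43 in NC-Undiff. Differentiated and undifferentiated libraries lay far apart in both lines, the LIGHT-Undiff libraries all lay above the NC-Undiff ones, and the lines overlapped after differentiation. In LIGHT cells the transcript rose by 4.82 ± 0.09 on the log2 scale (28.3-fold, edgeR adjusted p = 9.9e-13). In NC cells it rose by 5.48 ± 0.09 (44.7-fold, edgeR adjusted p = 8.5e-13), rank 192 from the top of 12993 genes. With 10 libraries the rise was 4.83 ± 0.08 in LIGHT cells and 5.54 ± 0.08 in NC cells. The difference between these responses was -0.66 ± 0.12 (edgeR adjusted p = 0.00542), and it was -0.71 ± 0.13 with 10 libraries (0.000316). Before differentiation Cebpa was 0.75 ± 0.10 higher in LIGHT than in NC cells (1.69-fold, edgeR adjusted p = 0.000215), and 0.77 ± 0.11 with 10 libraries. After differentiation the lines differed by 0.09 ± 0.07 with 12 libraries and 0.06 ± 0.06 with 10, neither past the threshold.

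Cebpb and Cebpd encode the early C/EBP proteins, and neither moved far. Cebpb had 397, 323 and 312 CPM in LIGHT-Diff, 264, 431 and 385 in NC-Diff, 269, 277 and 310 in LIGHT-Undiff and 254, 258 and 293 in NC-Undiff. The LIGHT-Diff libraries all lay above those of both undifferentiated groups, the other pairs of groups overlapped, and the library labelled NC-Diff 1 lay below the other 2 of its group by more than 100 CPM. In LIGHT cells the change in Cebpb was 0.27 ± 0.15 (edgeR adjusted p = 0.144), which passed the threshold only when NC-Diff 1 was left out (0.0242), and it was 0.16 ± 0.07 with 10 libraries (0.0539). In NC cells Cebpb rose by 0.43 ± 0.15 (edgeR adjusted p = 0.0272). This call was lost when NC-Diff 2 (adjusted p = 0.117), NC-Diff 3 (0.0745), NC-Undiff 1 (0.0854) or NC-Undiff 2 (0.0788) was left out, with scaling to library totals (0.0699), with only the groups compared (0.0514) and with limma (0.123). The rise was 0.63 ± 0.07 with 10 libraries (edgeR adjusted p = 1.1e-07). LIGHT and NC cells did not differ in Cebpb beyond the threshold before differentiation (0.09 ± 0.15, and 0.10 ± 0.06 with 10 libraries) or after it (-0.07 ± 0.15), but without the pair of libraries LIGHT cells were lower after it (-0.37 ± 0.08, edgeR adjusted p = 0.00106).

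Cebpd had 90.0, 91.6 and 95.4 CPM in LIGHT-Diff, 81.4, 90.7 and 83.6 in NC-Diff, 86.0, 89.1 and 90.1 in LIGHT-Undiff and 61.6, 62.0 and 68.4 in NC-Undiff. The 3 NC-Undiff libraries were the low ones, and all other libraries lay between 81.4 and 95.4 CPM. LIGHT cells were 0.47 ± 0.06 above NC cells before differentiation (1.38-fold, edgeR adjusted p = 0.00033), while on differentiation the change in LIGHT cells was 0.06 ± 0.06 and not called, and NC cells rose by 0.41 ± 0.06 (edgeR adjusted p = 0.000108). The difference in response was -0.35 ± 0.09 (edgeR adjusted p = 0.032). It missed the threshold when LIGHT-Diff 2, NC-Diff 2, any LIGHT-Undiff library, NC-Undiff 1 or NC-Undiff 2 was left out, with adjusted p of 0.0558 to 0.0822, as well as with library totals (0.0576), limma (0.0628) and a replicate block (0.0511). With 10 libraries it was -0.38 ± 0.09 (edgeR adjusted p = 0.00262). In that fit the change was 0.08 ± 0.06 in LIGHT cells, again not called, and 0.47 ± 0.06 in NC cells, and LIGHT cells were 0.48 ± 0.06 higher before differentiation. Cebpd lies on the strand opposite Spidr and Cebpb opposite Tmem189 in the GENCODE annotation, both are listed genes, and use of strand in the counting is not given, so reads from such partners cannot be told apart.

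Cebpg, whose product pairs with other C/EBP and ATF family proteins, rose in both lines. It had 176, 157 and 155 CPM in LIGHT-Diff, 152, 179 and 171 in NC-Diff, 102, 104 and 101 in LIGHT-Undiff and 84.5, 88.4 and 75.7 in NC-Undiff. Every differentiated library lay above every undifferentiated one. In the annotation Cebpg overlaps Gm44836 and Gm45094 on its own strand. Neither symbol is listed in the series, so reads from them cannot be told apart. The rise was 0.67 ± 0.08 in LIGHT cells (1.59-fold, edgeR adjusted p = 1.3e-05) and 1.01 ± 0.08 in NC cells (2.02-fold, edgeR adjusted p = 2.5e-07), and with 10 libraries 0.61 ± 0.06 in LIGHT cells and 1.10 ± 0.06 in NC cells. Before differentiation LIGHT cells were higher by 0.30 ± 0.08 (edgeR adjusted p = 0.015; 0.31 ± 0.06 with 10 libraries), a call lost without LIGHT-Undiff 2 (0.0528) or NC-Undiff 3 (0.0637). The responses differed by -0.35 ± 0.11, which was not called with 12 libraries (edgeR adjusted p = 0.0751) but was without LIGHT-Diff 1 (0.0296), without NC-Diff 1 (0.019) and without both, at -0.49 ± 0.09 (0.000232). After differentiation the 10-library difference of -0.17 ± 0.06 (edgeR adjusted p = 0.0486) was lost under library totals (0.308), limma (0.41), no filter (0.0659) and the leaving out of LIGHT-Diff 2 or 3, NC-Diff 2 or 3, or LIGHT-Undiff 1 or 2 (0.0622 to 0.288).

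**Figure D3:**
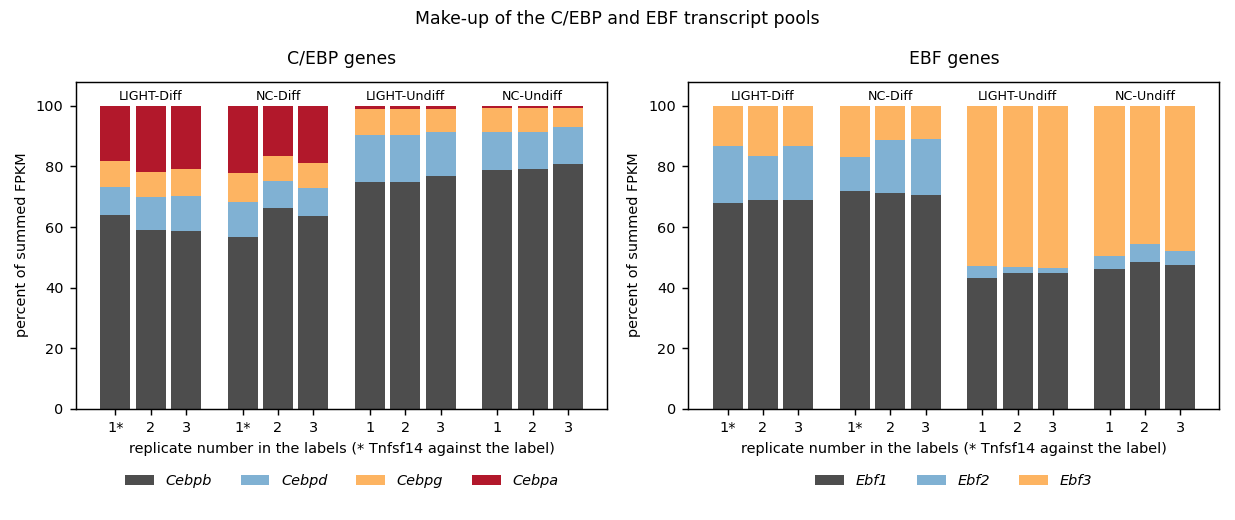
Stacked bars show the share of each gene (y axis, percent of the summed FPKM of its family, from 0 to 100) in every library (x axis), for the 4 C/EBP genes on the left and for Ebf1, Ebf2 and Ebf3 on the right. Cebpa takes 16.5% to 22% in differentiated libraries and at most 1.14% in undifferentiated ones, and Ebf3 gives way to Ebf1 and Ebf2.

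Set side by side on the FPKM scale, which divides by gene length, Cebpb was the most abundant of the 4 C/EBP transcripts in all groups, at 248 ± 26.2 FPKM in LIGHT-Diff, 253 ± 58 in NC-Diff, 214 ± 18.5 in LIGHT-Undiff and 205 ± 14.6 in NC-Undiff (SD, n = 3 each). Its share of the summed C/EBP FPKM was 60.6% in LIGHT-Diff and 62.3% in NC-Diff, against 75.6% in LIGHT-Undiff and 79.7% in NC-Undiff. Cebpa took 20.3% ± 1.80 in LIGHT-Diff and 19.1% ± 2.79 in NC-Diff, against 1.08% ± 0.0475 in LIGHT-Undiff and 0.715% ± 0.0958 in NC-Undiff (SD, n = 3 each). Cebpa was thus second of the 4 after differentiation and last before it, in both lines. Without the libraries labelled LIGHT-Diff 1 and NC-Diff 1 its share was 21% and 21.7% in LIGHT-Diff, against 16.5% and 18.8% in NC-Diff. In the same libraries the Cebpb share was 58.7% and 59.0% in LIGHT-Diff, against 63.75% and 66.3% in NC-Diff. The ratio of Cebpb to Cebpa was 2.72 to 3.50 in LIGHT-Diff and 2.58 to 4.02 in NC-Diff. Without that pair of libraries it was 2.72 to 2.80 in LIGHT-Diff and 3.39 to 4.02 in NC-Diff, which did not overlap. Before differentiation it averaged 70.0 in LIGHT-Undiff and 113 in NC-Undiff, with no overlap between their libraries.

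Ebf1, an EBF factor that promotes fat cell formation, rose in both lines. It had 66.6, 56.7 and 64.0 CPM in LIGHT-Diff, 61.5, 77.3 and 73.1 in NC-Diff, 23.5, 25.7 and 26.5 in LIGHT-Undiff and 26.6, 28.3 and 26.9 in NC-Undiff. All differentiated libraries exceeded all undifferentiated ones, the lines overlapped after differentiation, and the LIGHT-Undiff libraries lay just below the NC-Undiff ones. The rise was 1.30 ± 0.09 in LIGHT cells (2.47-fold, edgeR adjusted p = 1.5e-07) and 1.37 ± 0.09 in NC cells (2.59-fold, edgeR adjusted p = 6.6e-08), with a difference of -0.07 ± 0.13 that was not called. With 10 libraries the rise was 1.26 ± 0.08 in LIGHT cells and 1.49 ± 0.07 in NC cells. Without the pair of libraries, LIGHT-Diff lay below NC-Diff, with a log2 difference of -0.33 ± 0.08 (edgeR adjusted p = 0.0035). This call was lost without LIGHT-Diff 2 (0.0776), without NC-Diff 2 (0.0506) and with limma (0.0796).

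Ebf3 moved the other way. Its level was 12.1, 12.2 and 11.5 CPM in LIGHT-Diff, 13.4, 11.8 and 10.7 in NC-Diff, 28.1, 28.7 and 31.7 in LIGHT-Undiff and 27.3, 25.9 and 25.9 in NC-Undiff. The differentiated libraries were all below the undifferentiated ones. The change was -1.31 ± 0.09 in LIGHT cells (edgeR adjusted p = 1.4e-07) and -1.14 ± 0.09 in NC cells (edgeR adjusted p = 3.8e-07), and the lines did not differ beyond the threshold at either stage. With 10 libraries it was -1.31 ± 0.10 in LIGHT cells and -1.21 ± 0.10 in NC cells, with no call between the lines at either stage. In the shared pool of EBF transcripts, Ebf3 accounted for 14.2% of summed FPKM in LIGHT-Diff and 13.1% in NC-Diff, against 53.3% in LIGHT-Undiff and 47.8% in NC-Undiff. Ebf1 made up 68.6% in LIGHT-Diff and 71.3% in NC-Diff, against 44.2% in LIGHT-Undiff and 47.3% in NC-Undiff. Without LIGHT-Diff 1 and NC-Diff 1 the Ebf3 share was 13.1% to 16.4% in LIGHT-Diff and 11.1% to 11.3% in NC-Diff. The Ebf1 share was then 68.9% to 69.0% in LIGHT-Diff and 70.7% to 71.2% in NC-Diff. Ebf3 lies opposite the listed antisense gene Gm10578 in the annotation, so that the same limit on strand applies.

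Zfp423, the preadipocyte commitment factor, separated the lines more than any other of the 9 before differentiation. It had 30.4, 40.2 and 38.1 CPM in LIGHT-Diff, 39.8, 26.8 and 28.0 in NC-Diff, 11.7, 13.6 and 15.2 in LIGHT-Undiff and 3.52, 2.58 and 3.26 in NC-Undiff. All NC-Undiff libraries lay below all LIGHT-Undiff libraries, these lay below all differentiated ones, and the differentiated lines overlapped. Zfp423 was 2.12 ± 0.20 higher in LIGHT than in NC cells before differentiation (4.34-fold, edgeR adjusted p = 2.3e-05), rank 101 from the top of 12993 genes. It rose by 1.42 ± 0.17 in LIGHT cells (2.68-fold, edgeR adjusted p = 1.2e-05) and by 3.33 ± 0.20 in NC cells (10.1-fold, edgeR adjusted p = 1.8e-08). The difference in response was -1.91 ± 0.26 (edgeR adjusted p = 0.00108), rank 147 from the bottom of all genes, and -1.62 ± 0.18 with 10 libraries (2.1e-06). In that fit Zfp423 was 2.13 ± 0.14 higher in LIGHT cells before differentiation, and it rose by 1.53 ± 0.11 in LIGHT cells and 3.15 ± 0.14 in NC cells.

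After differentiation Zfp423 differed between the lines by 0.20 ± 0.16 as labelled, which was not called. The library labelled NC-Diff 1 was the highest of its group at 39.8 CPM and the library labelled LIGHT-Diff 1 the lowest of its group at 30.4 CPM. Without them the LIGHT-Diff libraries (40.2 and 38.1 CPM) both lay above the NC-Diff libraries (26.8 and 28.0 CPM), a difference of 0.51 ± 0.12 (1.42-fold, edgeR adjusted p = 0.00323). The deposited tables also list a length for each gene, which for Zfp423 was 4916 bases in all 3 NC-Undiff libraries. In LIGHT-Undiff it was 4619, 4776 and 4748 bases, while it ranged over 4668 to 4916 bases in LIGHT-Diff and 4828 to 4916 in NC-Diff. The 3 LIGHT-Undiff libraries were thus all listed with a shorter length than the 3 NC-Undiff libraries, which had 61, 46 and 56 counts of the gene, and no count per transcript was analysed here.

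Gata2, a brake that marks precursors, fell in both lines. It had 4.11, 5.96 and 5.12 CPM in LIGHT-Diff, 4.29, 4.12 and 3.08 in NC-Diff, 9.39, 9.84 and 11.0 in LIGHT-Undiff and 11.8, 11.1 and 14.2 in NC-Undiff. Differentiated and undifferentiated libraries did not overlap in either line. The change was -0.99 ± 0.18 in LIGHT cells (edgeR adjusted p = 0.000359) and -1.69 ± 0.18 in NC cells (edgeR adjusted p = 3.7e-06), and with 10 libraries -0.86 ± 0.16 in LIGHT cells and -1.76 ± 0.17 in NC cells. The responses differed by 0.71 ± 0.25, not called with 12 libraries (edgeR adjusted p = 0.0991), called without LIGHT-Diff 1 (0.0443) and called at 0.91 ± 0.24 without both (0.00702). After differentiation the level in LIGHT over NC was 0.41 ± 0.19 as labelled (edgeR adjusted p = 0.913) and 0.63 ± 0.20 with 10 libraries (edgeR adjusted p = 0.0224). The second was lost without LIGHT-Diff 2 (0.164), without NC-Diff 3 (0.199) and when only the 2 groups compared were fitted (0.0579).

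Gata3, the second brake, was higher in LIGHT cells before differentiation. Its level was 2.06, 4.28 and 3.72 CPM in LIGHT-Diff, 3.73, 2.30 and 3.89 in NC-Diff, 11.3, 10.1 and 11.1 in LIGHT-Undiff and 4.21, 4.77 and 5.42 in NC-Undiff. The LIGHT-Undiff libraries stood above all others, and NC-Undiff was only just above NC-Diff. In the annotation Gata3 overlaps 9230102O04Rik on its own strand and 4930412O13Rik on the opposite one. Neither symbol is listed in the series, so reads from them cannot be told apart. LIGHT cells were 1.17 ± 0.24 above NC cells before differentiation (2.25-fold, edgeR adjusted p = 0.00445), rank 317 of 12993, whereas Gata2 differed by -0.29 ± 0.17 there and was not called. With 10 libraries these differences were 1.18 ± 0.16 for Gata3, called, and -0.28 ± 0.13 for Gata2, not called. T cell markers, a cell type that also uses GATA3, summed to 1.61 to 2.36 CPM in LIGHT-Undiff and 1.67 to 3.59 CPM in NC-Undiff. Lck alone had 2.36, 2.36 and 1.56 CPM in LIGHT-Undiff and 1.67, 3.59 and 2.68 CPM in NC-Undiff. The part of these markers in the Gata3 difference was not tested. On differentiation Gata3 changed by -1.68 ± 0.25 in LIGHT cells (edgeR adjusted p = 9.3e-05), and by -1.43 ± 0.19 with 10 libraries. In NC cells the change of -0.54 ± 0.26 did not pass (edgeR adjusted p = 0.0877), but it did without LIGHT-Diff 1 (0.0371), with limma (0.0494) and at -0.60 ± 0.21 with 10 libraries (0.0168). The difference in response was -1.15 ± 0.36 (edgeR adjusted p = 0.0668). It was called by DESeq2 (0.0216), without LIGHT-Diff 2 (0.0498), without NC-Diff 2 (0.0348), and with 10 libraries at -0.83 ± 0.29 (0.0341). After differentiation the lines differed by 0.02 ± 0.26 with 12 libraries and 0.35 ± 0.23 with 10, and only leaving out NC-Diff 3 as well brought a call (0.0395).

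**Figure D4:**
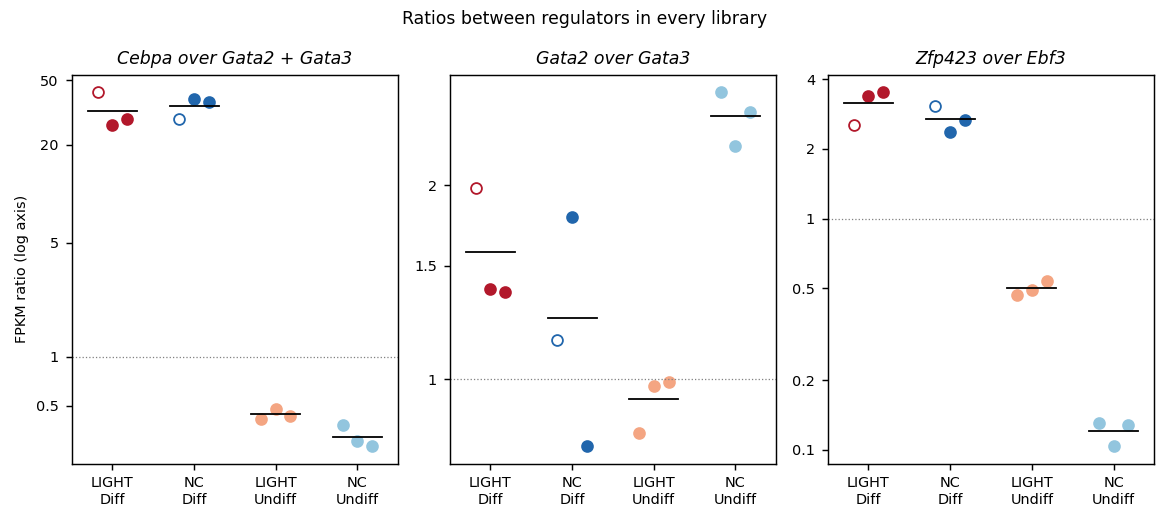
Ratios of FPKM (y axes, log scale) are shown per library in the 4 groups (x axes), with the group mean as a line and LIGHT-Diff 1 and NC-Diff 1 hollow, for Cebpa over Gata2 plus Gata3, Gata2 over Gata3 and Zfp423 over Ebf3. Before differentiation the Gata2 to Gata3 ratio is 0.826 to 0.992 in LIGHT-Undiff and 2.30 to 2.79 in NC-Undiff.

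Cebpa, 1 of the 5 activators, and the brakes were set against each other as ratios of FPKM. Cebpa over the sum of Gata2 and Gata3 was 42.2, 26.4 and 28.7 in LIGHT-Diff, 29.0, 38.1 and 36.9 in NC-Diff, 0.413, 0.479 and 0.434 in LIGHT-Undiff and 0.379, 0.303 and 0.282 in NC-Undiff. Brakes outweighed Cebpa in all 6 undifferentiated libraries and Cebpa outweighed them in all 6 differentiated ones. Without the pair that goes against its labels, the mean ratio was 27.5 in LIGHT-Diff and 37.5 in NC-Diff. The order before differentiation holds for Cebpa and not for every activator. Cebpb was at 214 FPKM in LIGHT-Undiff and 205 in NC-Undiff, and Cebpd at 43.0 and 31.6. The summed brakes were at 6.93 in LIGHT-Undiff and 5.76 in NC-Undiff. Ebf1 (5.06 and 5.55) and Zfp423 (3.05 and 0.68) had lower means than that sum in those groups. By library, however, Ebf1 lay just above the sum in NC-Undiff 1 (5.46 against 5.38) and NC-Undiff 2 (5.8 against 5.38). It lay below the sum in NC-Undiff 3 (5.39 against 6.52). Of the brakes, Gata2 was the more abundant in NC-Undiff, at 2.56 ± 0.246 times Gata3, whereas the ratio was 0.931 ± 0.0917 in LIGHT-Undiff (SD, n = 3 each), and the libraries did not overlap. After differentiation this ratio was 1.98, 1.38 and 1.37 in LIGHT-Diff and 1.15, 1.79 and 0.788 in NC-Diff, and the lines overlapped. Zfp423 over Ebf3 was 3.15 ± 0.533 in LIGHT-Diff and 2.70 ± 0.358 in NC-Diff, against 0.499 ± 0.0345 in LIGHT-Undiff and 0.121 ± 0.0147 in NC-Undiff. Without LIGHT-Diff 1 and NC-Diff 1 it was 3.39 to 3.51 in LIGHT-Diff and 2.36 to 2.66 in NC-Diff, which did not overlap. These ratios are descriptions and were not tested.

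Genes that regulate C/EBP proteins, or share their family, were followed as a list of 7, of which 6 were tested and Cebpe, absent from the tables, was not. The counts of this and the following lists on differentiation stand beside 58.6% of all genes called in LIGHT cells (29.5% up and 29.1% down) and 63.9% in NC cells (32.2% up and 31.7% down). Those before differentiation stand beside 12.3% higher and 14.2% lower. With 10 libraries the shares on differentiation were 64.7% in LIGHT cells (32.5% up and 32.2% down) and 71.1% in NC cells (36% up and 35.1% down). Before differentiation they were 22.5% higher and 22.3% lower. On differentiation 0 of 6 rose and 3 fell in LIGHT cells, and 1 rose and 3 fell in NC cells, with list medians of -0.38 and -0.25; with 10 libraries the counts were 0 and 3 in LIGHT cells, and 3 and 3 in NC cells. Trib1, whose product targets C/EBPα for breakdown, changed by -1.33 ± 0.10 in LIGHT cells and -1.73 ± 0.10 in NC cells (-1.31 ± 0.11 and -1.62 ± 0.11 in those lines with 10 libraries). Trib2, its relative and an inhibitor of fat cell formation in 3T3-L1, changed by -0.66 ± 0.18 in LIGHT cells and -1.27 ± 0.18 in NC cells (with 10 libraries, -0.88 ± 0.11 in LIGHT cells and -1.10 ± 0.11 in NC cells). Before differentiation 2 of 6 were lower in LIGHT cells: Trib2 (-0.68 ± 0.17, edgeR adjusted p = 0.012) and Cebpz (-0.34 ± 0.09, 0.0138). With 10 libraries 2 were higher and the same number lower there, with Trib2 at -0.67 ± 0.09 and Cebpz at -0.33 ± 0.07. The Trib2 call was lost without NC-Undiff 1 (0.0508) and the Cebpz call without LIGHT-Undiff 1 (0.0529) or NC-Undiff 1 (0.0502). Among 10 libraries after differentiation, 3 of 6 were lower in LIGHT cells beside 16.7% of all genes, led by Ddit3 (-0.76 ± 0.07), the stress-induced C/EBP homologue that blocks other C/EBP proteins, and Trib3 (-0.66 ± 0.06). Trib2 was the third (-0.45 ± 0.13, edgeR adjusted p = 0.0111) and was lost without LIGHT-Diff 2 (0.181), without NC-Diff 2 (0.117) and with limma (0.0792).

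Of the EBF and zinc finger relatives, 3 of 4 were tested. Ebf2, the EBF factor of brown and beige fat cells, rose by 3.67 ± 0.33 in LIGHT cells and by 2.60 ± 0.29 in NC cells, and with 10 libraries by 3.43 ± 0.17 in LIGHT cells and 2.90 ± 0.15 in NC cells. It had 17.7, 11.2 and 11.3 CPM in LIGHT-Diff, 8.52, 18.3 and 18.3 in NC-Diff, 1.18, 1.05 and 0.912 in LIGHT-Undiff and 2.37, 2.58 and 2.51 in NC-Undiff. LIGHT cells had less of it than NC cells before differentiation (-1.25 ± 0.35, edgeR adjusted p = 0.0215; -1.24 ± 0.20 with 10 libraries), and after it among 10 libraries (-0.71 ± 0.14, edgeR adjusted p = 0.00083). The first call missed the threshold without LIGHT-Undiff 2 or 3 or NC-Undiff 2 or 3 (0.0531 to 0.0727), and the second with limma (0.416). Zfp521, a relative of Zfp423 that inhibits EBF1, had 21.1, 33.1 and 33.3 CPM in LIGHT-Diff, 30.6, 21.3 and 22.6 in NC-Diff, 37.8, 43.9 and 47.0 in LIGHT-Undiff and 30.3, 27.9 and 28.4 in NC-Undiff. The undifferentiated lines did not overlap, and LIGHT cells were higher before differentiation by 0.57 ± 0.17 (edgeR adjusted p = 0.0259; 0.58 ± 0.08 with 10 libraries). That call was lost without any one of 5 of the 6 undifferentiated libraries, all but LIGHT-Undiff 1, with adjusted p of 0.0586 to 0.0911, with limma (0.0688) and with a replicate block (0.0564). With 10 libraries LIGHT cells were also higher after differentiation, by 0.59 ± 0.10 (edgeR adjusted p = 0.000154). Zfp467, a zinc finger protein that promotes fat cell formation in mice, rose in NC cells (0.76 ± 0.13, and 0.83 ± 0.11 with 10 libraries) and was higher in LIGHT cells before differentiation (0.61 ± 0.13, and 0.62 ± 0.10 with 10 libraries). Over the 3 tested genes, 1 rose and 1 fell in LIGHT cells and 2 rose and 0 fell in NC cells, where 10 libraries gave 1 and 1 in LIGHT cells and 2 and 1 in NC cells.

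Of the GATA relatives and cofactors, 4 of 7 were tested, and 2 rose and 1 fell in each line (2 and 2 with 10 libraries). Gata6 rose by 1.33 ± 0.15 in LIGHT cells and 1.73 ± 0.15 in NC cells, in the direction opposite to Gata2, and with 10 libraries by 1.49 ± 0.09 in LIGHT cells and 1.70 ± 0.10 in NC cells. Trps1, a GATA-type repressor, rose by 1.07 ± 0.11 in LIGHT cells and 1.43 ± 0.11 in NC cells (with 10 libraries, 1.14 ± 0.09 in LIGHT cells and 1.37 ± 0.10 in NC cells). Zfpm1, the cofactor also called FOG1, changed by -1.08 ± 0.11 in LIGHT cells and -0.74 ± 0.11 in NC cells, and with 10 libraries by -0.96 ± 0.08 in LIGHT cells and -0.77 ± 0.09 in NC cells. Before differentiation Zfpm1 (0.58 ± 0.11, edgeR adjusted p = 0.0022) and Gata6 (0.65 ± 0.16, edgeR adjusted p = 0.00959) were the 2 of 4 that were higher in LIGHT cells, and none was lower, whereas all 4 were higher with 10 libraries, beside 22.5% of all genes, with Zfpm1 at 0.59 ± 0.07 and Gata6 at 0.66 ± 0.10. With 10 libraries after differentiation, 3 were higher and none lower, beside 14.8% of all genes higher: Zfpm2 (0.81 ± 0.11), Gata6 (0.46 ± 0.10) and Zfpm1 (0.40 ± 0.10), the last lost without NC-Diff 3 (edgeR adjusted p = 0.103).

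Genes known to carry C/EBPα sites rose with Cebpa on differentiation, 7 of 7 tested in both lines with 12 and with 10 libraries, and with 12-library list medians of 6.26 in LIGHT cells and 5.41 in NC cells. For Slc2a4, the insulin-responsive glucose transporter, only the differentiated libraries met the filter, so that the full count is partly set by the filter. Fabp4 rose by 8.97 ± 0.42 in LIGHT cells and 8.50 ± 0.41 in NC cells, and Adipoq by 9.29 ± 0.31 in LIGHT cells and 8.98 ± 0.31 in NC cells. With 10 libraries Fabp4 rose by 8.70 ± 0.20 in LIGHT cells and 8.72 ± 0.20 in NC cells, and Adipoq by 9.10 ± 0.14 in LIGHT cells and 9.12 ± 0.14 in NC cells. Before differentiation, where LIGHT cells had more Cebpa, Pparg was the only 1 of the 7 called, and it was lower in LIGHT cells (-0.73 ± 0.15, edgeR adjusted p = 0.00368). With 10 libraries Pparg was at -0.72 ± 0.09, and 2 of the 7 were higher and 4 lower, beside 22.5% and 22.3% of all genes. Of these 4, Slc2a4 had 1, 0 and 0 counts in LIGHT-Undiff against 4, 2 and 4 in NC-Undiff and was tested only because the differentiated libraries met the filter, so its call is given no weight. Pparg had 116, 92.8 and 103 CPM in LIGHT-Diff, 89.3, 124 and 127 in NC-Diff, 7.85, 7.33 and 7.19 in LIGHT-Undiff and 12.8, 11.7 and 12.6 in NC-Undiff, so the undifferentiated lines did not overlap. Among 10 libraries after differentiation, 6 of 7 were lower in LIGHT cells and none higher, with a list median of -0.67 against -0.012 over all genes, where 31.5% of all genes were called and 16.7% were lower. The adipocyte markers were lower in the same fit, summing to 15251 to 15623 CPM in LIGHT-Diff against 19780 to 20902 CPM in NC-Diff, Fabp4 and Adipoq stand in both lists, and the part of these markers was not tested. Slc2a4 (-0.92 ± 0.09), Hsd11b1 (-0.91 ± 0.11) and Scd1 (-0.73 ± 0.07) led them, while Cebpa itself differed by 0.06 ± 0.06. With all 12 libraries none of the 7 was called after differentiation.

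Other activators of fat cell formation formed a list of 11, all tested, which overlaps the previous list in Pparg. On differentiation 8 rose and 2 fell in LIGHT cells, and 8 rose and 3 fell in NC cells. With 10 libraries 7 rose and 3 fell in LIGHT cells, and 8 rose and 3 fell in NC cells. Pparg rose by 3.80 ± 0.14 in LIGHT cells and 3.20 ± 0.14 in NC cells, and with 10 libraries by 3.71 ± 0.08 in LIGHT cells and 3.37 ± 0.07 in NC cells. Klf15 rose by 5.57 ± 0.26 in LIGHT cells and 5.97 ± 0.28 in NC cells (with 10 libraries, 5.51 ± 0.26 in LIGHT cells and 6.11 ± 0.28 in NC cells). It had no more than 6 counts in any undifferentiated library and met the filter only through the differentiated ones, so that the count of 8 is partly set by the filter and is no support for the list. Before differentiation 1 of the 11 was higher and 3 were lower in LIGHT cells. With 10 libraries 3 were higher and 3 lower, beside 22.5% and 22.3% of all genes. Egr2 had 62, 19 and 25 counts in NC-Undiff, against 202, 271 and 208 in LIGHT-Undiff. The early factors Egr2 and Klf5 went opposite ways, with Egr2 higher (2.61 ± 0.36, edgeR adjusted p = 0.000305) and Klf5 lower (-1.43 ± 0.20, edgeR adjusted p = 0.000338) in LIGHT cells. Their responses to differentiation differed between the lines, by -2.22 ± 0.48 for Egr2 (edgeR adjusted p = 0.014) and 1.55 ± 0.28 for Klf5 (edgeR adjusted p = 0.00567). With 10 libraries the differences before differentiation were 2.62 ± 0.25 for Egr2 and -1.42 ± 0.17 for Klf5, and those in response were -2.11 ± 0.38 for Egr2 and 1.23 ± 0.27 for Klf5, all called. After differentiation, 0 of the 11 were higher and 2 lower in LIGHT cells with 10 libraries, beside 14.8% and 16.7% of all genes.

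Of 13 other brakes, 10 were tested. On differentiation 2 rose and 4 fell in LIGHT cells, and 4 rose and 3 fell in NC cells, beside the shares of all genes given above. With 10 libraries the counts were 2 and 4 in LIGHT cells, and 5 and 5 in NC cells. Dlk1, the membrane protein of precursors, had 666, 771 and 776 CPM in LIGHT-Diff, 779, 644 and 680 in NC-Diff, 1391, 1483 and 1432 in LIGHT-Undiff and 970, 908 and 947 in NC-Undiff. It changed by -0.96 ± 0.09 in LIGHT cells and -0.43 ± 0.09 in NC cells, and with 10 libraries by -0.89 ± 0.06 in LIGHT cells and -0.49 ± 0.05 in NC cells. The difference of -0.53 ± 0.12 (edgeR adjusted p = 0.0174) was lost without LIGHT-Undiff 2 (0.0546) or NC-Undiff 2 (0.052) and with a replicate block (0.0518), and it was -0.40 ± 0.08 with 10 libraries (0.000505). Before differentiation 4 of 10 brakes were higher in LIGHT cells and none lower, with Dlk1 at 0.61 ± 0.09 (edgeR adjusted p = 0.000382) and Klf3, a repressor of Cebpa, at 0.47 ± 0.11 (edgeR adjusted p = 0.00859). With 10 libraries Dlk1 was at 0.62 ± 0.05 and Klf3 at 0.48 ± 0.08. The list median was 0.30, Zfp521, described above, is one of the 4, and with 10 libraries 8 were higher and none lower, beside 22.5% of all genes higher. Twist1, a repressor of thermogenic genes in fat cells, rose in both lines, by 0.95 ± 0.14 in LIGHT cells and 0.91 ± 0.14 in NC cells, and with 10 libraries by 1.09 ± 0.07 in LIGHT cells and 0.78 ± 0.07 in NC cells. With 10 libraries after differentiation, 5 brakes were higher and 2 lower in LIGHT cells, beside 14.8% and 16.7% of all genes, with Twist1 at 0.60 ± 0.07 and Nr2f2 at 0.58 ± 0.08 among the higher and Ddit3 among the lower.

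The genes whose pattern over the 12 libraries lay nearest to each regulator were sought among 9958 genes by the root mean square distance of standardised log2 CPM, as a description. Nearest to Cebpa were Dlc1 and Fgfrl1, at 0.0530 and 0.0553. Zfp423, which differed by stage in both lines and by line before differentiation, was nearest to Ano8 (0.0953) and Rin2 (0.123). Gata2 had Kctd10 (0.155) and Rad54b as nearest, and Gata3 had Rbm8a (0.225) and Crtc3. The nearest pairs were Pank3 and Prkce for Ebf1, Masp1 and Fbln1 for Ebf3, R3hdm2 and Isg20 for Cebpb, Hyi and Sec16b for Cebpd, and Gper1 and Peli2 for Cebpg. Many genes differ by stage here, and all of these distances come from the same libraries.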

How the data were processed

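RNA was sequenced from 3T3-L1 cells of 2 lines at 2 stages, with 3 libraries a group. The deposited tables hold 1 row per gene with an expected count, an FPKM value and a gene length, and hold no gene at 0; absent genes were entered as 0. The genome build is mm8 per the submitters' processing notes, and the aligner and counter are named in none of the sources used here. Groups follow the sample titles. The deposited expected counts were rounded, then tested with edgeR 4.0.16 (R 4.3.3): TMM scaling, filterByExpr with a minimum count of 10, 1 coefficient per group over 12 libraries, a two-sided quasi-likelihood test and Benjamini-Hochberg adjustment over 12993 genes, called at 0.05. CPM are TMM-scaled, and the FPKM deposited by the authors were used to set one gene beside another. SE was taken as the size of the log2 change over the root of F. The script was tested on simulated data.

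All 9 genes are named in every comparison, and up to 3 genes per related list, those with the smallest p. The genes, lists and tests were chosen with earlier results of these data known. The Tnfsf14 check, and the use of 10 libraries, come from such results too. Annotated overlapping genes on either strand come from GENCODE for GRCm38, used for names only. Alternatives were RLE scaling, library totals, no filter, a stricter filter (1 CPM in 6 libraries), DESeq2 1.42.0, limma 3.58.1 on log2(FPKM + 0.1), a replicate block, only the groups compared, and leaving out libraries. Same-numbered libraries are not stated to share a culture. Counting precision is limited by 16334079 to 19686675 counts a library. Proteins were not used here.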

Additional observations from a re-analysis of the deposited data

Results flagged for a closer look

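The change on differentiation differed between the LIGHT and the NC line, by the interaction test of edgeR, for the following genes. With all 12 libraries the log2 difference in response was -0.66 for Cebpa (adjusted p = 0.00542), -0.35 for Cebpd (0.032) and -1.91 for Zfp423 (0.00108). With 10 libraries, leaving out those labelled LIGHT-Diff 1 and NC-Diff 1, it was -0.71 for Cebpa (0.000316), -0.47 for Cebpb (0.00121), -0.38 for Cebpd (0.00262), -0.49 for Cebpg (0.000232), -1.62 for Zfp423 (2.1e-06) and -0.83 for Gata3 (0.0341), and 0.91 for Gata2 (0.00702). Of all genes, 9.34% were called with 12 libraries and 31.4% with 10. Ebf1 and Ebf3 were called in neither.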

How the results depend on the processing

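Counts of called regulators (up and down) stayed within 1.5 times of those reported under each setting tried for both responses to differentiation and for LIGHT over NC before it. Over left-out libraries they were 4 to 5 up and 3 down in LIGHT cells, 5 to 6 up and 2 to 3 down in NC cells, and 4 to 5 up and 0 down before differentiation. For LIGHT over NC after differentiation, leaving out LIGHT-Diff 1 and NC-Diff 1 gave 2 up and 3 down against 0 and 0 with 12 libraries, and with 10 libraries limma gave 1 down and a fit of only the groups compared 1 up. With each of those 10 libraries left out in turn, the log2 difference ran from 0.47 to 0.55 for Zfp423 and from 0.43 to 0.86 for Gata2. It ran from -0.44 to -0.27 for Cebpb, from -0.20 to -0.13 for Cebpg and from -0.42 to -0.24 for Ebf1. Where the library left out was a differentiated one, 1 remained in its arm and was assumed to vary like the rest. The interaction gave 1 up and 6 down with 10 libraries, and 0 to 1 up and 2 to 4 down over left-out libraries. The cause was not tested.

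Apart from Klf4, signs turned only for values that were not called. Cebpd in LIGHT cells on differentiation was -0.012 with library totals and -0.00074 with limma, against 0.06. After differentiation, Ebf3 (-0.0053 with 12 libraries) was 0.020 with library totals, 0.050 with limma and 0.064 with 10 libraries, and Klf4, -0.31 with 10 libraries, was 0.011 with 12. Over left-out libraries in that comparison, Cebpb ran from -0.25 to 0.083, Cebpg from -0.11 to 0.0087, Ebf3 from -0.077 to 0.077 and Gata3 from -0.20 to 0.27.

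Over all genes, 3446 were called before differentiation against 5608 with only the groups compared, 5817 with 10 libraries and 2247 without LIGHT-Undiff 2. The interaction called 1214, against 4085 with 10 libraries, 1889 without NC-Diff 1, and 690 to 799 without LIGHT-Undiff 1 or 2 or NC-Undiff 2 or 3. After differentiation, 0 were called as labelled, 1 by DESeq2 and 4092 with 10 libraries (2615 when LIGHT-Diff 2 was also left out). Scaling to library totals moved the median of all genes in NC cells on differentiation to -0.11, and the share of calls that were rises to 42.1% from 50.4%. With 10 libraries that share became 40.2% against 50.7% in NC cells, 66% against 46.9% for LIGHT over NC after differentiation and 65.4% against 48.1% for the interaction.

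GEO's labels give the replicate numbers 1 to 3 in each group. The labels do not say that same-numbered libraries share a culture, and the main fit therefore did not pair them. Deviations of same-numbered libraries correlated at 0.036 to 0.097 for the responses to differentiation, -0.0069 to 0.045 before it and -0.62 to -0.29 after it. Each of 6 libraries correlated best with its own number in both responses, 2 of 6 before differentiation and 0 of 6 after it. The comparison after differentiation holds LIGHT-Diff 1 and NC-Diff 1, which go against their labels, so it cannot decide on pairing. Each response to differentiation holds 1 of these libraries, LIGHT-Diff 1 in LIGHT cells and NC-Diff 1 in NC cells. The matches in the responses therefore carry the same limit. Whether same-numbered libraries share a batch was not tested. With the replicate block the counts of regulators were 4 up and 3 down on differentiation in LIGHT cells, 6 up and 2 down in NC cells, 5 up and 0 down before differentiation, 0 and 0 after it, and 0 up and 2 down for the interaction, with 747 genes called there. At this depth Gata3 rested on 33 to 206 counts a library.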
